A study of Rattus norvegicus with 11 samples.

Results

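The TNF superfamily genes described here are 10 of the 30560 genes in the deposited table, found by a symbol equal to one of 10 names. They were the ligands Tnf, Tnfsf12 and Tnfsf13b and the receptors Tnfrsf1a, Tnfrsf1b, Tnfrsf12a, Fas, Cd40, Ltbr and Tnfrsf11b. RNA sequencing had been carried out on the right striatum of 11 adult male Sprague-Dawley rats, 1 library per rat, at day 3. Intracerebral hemorrhage was produced with bacterial collagenase VII-S, an enzyme that opens vessel walls. The common hemorrhage group (IC, n = 3) had received 0.2 U in 1 µL of saline and the severe hemorrhage group (IS, n = 3) 0.6 U in 3 µL. The aspirated group (IS-HA, n = 3) had received the IS dose, and 150 µL of the hematoma was withdrawn through a catheter 6 h later. Normal rats (n = 2) had received neither collagenase nor aspiration, and they were not a saline-injected or sham-operated group, so injury from the needle and bleeding cannot be told apart against them. Dose and injected volume also rose together from IC to IS and cannot be told apart. The IS-HA rats were anesthetized again and had a catheter passed through the hematoma, and no sham pass is described for IS. Removal of blood and these steps therefore cannot be told apart. Rats with the same number in different groups were different animals.

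TNF superfamily ligands are mostly made as trimeric membrane proteins that can be cut free by proteases, and they act on receptors that recruit TRAF adaptors or, where the receptor carries a death domain, adaptors that can lead to caspase activation or necroptosis. Most of these receptors activate NF-κB and AP-1, transcription factors whose targets include cytokines, adhesion molecules and the pathway's own inhibitors. In brain, microglia and infiltrating macrophages are a main source of TNF, while neurons, astrocytes and endothelial cells carry receptors for it.

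The promoter sequences of 3 members are shown because they carry matches to elements that these 2 factors, or the basal machinery, are known to bind. The sequences are the 250 bases before the annotated start, 5′ to 3′ on the gene's strand, from RefSeq on build GRCr8, with the matched letters in capitals. The counts of the deposited table were made on another build, mRatBN7.2.

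Tnf, chr20:3626435-3626684, plus strand, with TATAAA in capitals: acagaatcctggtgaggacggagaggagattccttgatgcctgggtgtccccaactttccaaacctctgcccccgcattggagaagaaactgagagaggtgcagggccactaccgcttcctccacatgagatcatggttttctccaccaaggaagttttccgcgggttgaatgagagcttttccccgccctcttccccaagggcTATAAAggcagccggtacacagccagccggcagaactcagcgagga

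Fas, chr1:241211905-241212154, plus strand, with a κB consensus match and TGAATCA, an AP-1 site, in capitals: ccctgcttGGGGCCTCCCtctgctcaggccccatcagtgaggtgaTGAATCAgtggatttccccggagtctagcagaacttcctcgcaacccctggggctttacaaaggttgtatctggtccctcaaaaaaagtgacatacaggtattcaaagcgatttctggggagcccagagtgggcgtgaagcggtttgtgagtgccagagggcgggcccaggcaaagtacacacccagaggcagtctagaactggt

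Tnfrsf1b, chr5:162387412-162387661, minus strand, with the AP-1 site TGAGTCA in capitals: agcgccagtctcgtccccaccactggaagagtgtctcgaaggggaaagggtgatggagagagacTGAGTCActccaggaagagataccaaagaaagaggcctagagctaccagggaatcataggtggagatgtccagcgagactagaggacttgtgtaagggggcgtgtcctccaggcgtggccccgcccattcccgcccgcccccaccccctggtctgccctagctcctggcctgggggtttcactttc

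The κB consensus and the AP-1 site TGANTCA were searched on both strands in the 250 bases of the 7 members with a listed promoter. Fas held the only κB match, 242 to 233 bases before the start, and the AP-1 site lay 205 to 199 bases before the start in Fas and 186 to 180 in Tnfrsf1b. Of all 33469 listed promoters, 6.33% held the κB consensus and 6.34% the AP-1 site in the same window. The TATAAA of Tnf, 46 to 41 bases before the start, was looked for after the sequences had been seen, and 12.9% of all promoters held it. Tnfsf13b, Tnfrsf1a, Tnfrsf12a and Ltbr held none of these motifs, and they too were higher in the hemorrhage groups. The matches describe the letters in the window. They were not tested for binding or for a part in the changes described below.

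Library totals ranged from 6701301 to 18817645 counts, and 15742 genes, all 10 members among them, passed the filter on low counts. IS-HA replicate 2 had the smallest library, stood apart from the other IS-HA rats and had the lowest quality weight of the 11 rats in a voom fit (0.155). The members' medians and main differences of IS-HA from IS and IC are therefore also given without it. Fold changes of IS-HA against Normal, and results of the other lists, include it unless stated. Levels are given in TPM, a transcript abundance scaled by gene length and library depth, so that levels of different genes can be compared. Fold changes come from the counts, by the quasi-likelihood F test of edgeR, adjusted after Benjamini and Hochberg over all genes tested, and a gene was called at an adjusted p under 0.05 and a log2 fold change of at least 1 in size. The p-values measure the spread between rats, of which a group has 2 or 3. In bulk tissue, more cells of a type and more RNA per cell cannot be told apart.

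**Figure D1:**
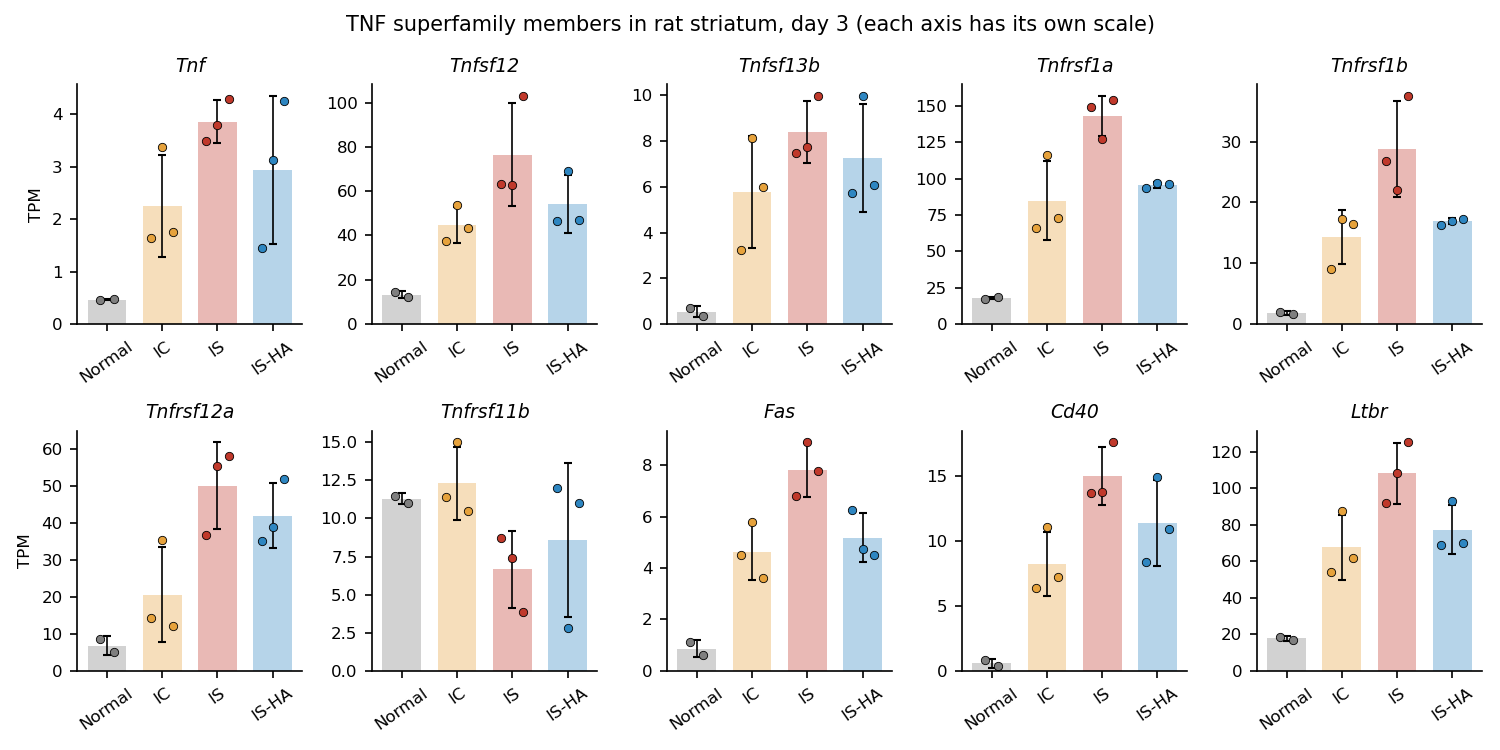
Level of each member in TPM (y axis, linear from 0, its own scale in each panel) by group (x axis); points are rats, bars are group means and error bars are SD (n = 2 for Normal, n = 3 for the others). In 9 panels every hemorrhage rat lies above both Normal rats, and Tnfrsf11b is the exception.

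Hemorrhage was accompanied by more RNA of 9 of the 10 members. Against Normal, 9 members were called higher in IC, where 10.9% of all genes were called higher, the same number in IS, where 18.8% were, and the same number in IS-HA, where 15.1% were. These 3 comparisons share the Normal rats, and the members called were the same 9 in each, in IS-HA also without replicate 2. The median log2 fold change of the 10 members was 2.18 in IC, 3.02 in IS and 2.57 in IS-HA, against 0.00, 0.02 and 0.06 over all genes tested. Without IS-HA replicate 2 the members' median in IS-HA was 2.45. In TPM the same 9 members were higher in each of the 9 hemorrhage rats than in either Normal rat, as were 27.1% of all genes tested. The exception was Tnfrsf11b.

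Tnf (ENSRNOG00000070745), the founding cytokine of the family, was the member with the lowest mean TPM in every group. It was 0.463 and 0.473 TPM in Normal replicates 1 and 3, 1.64, 3.37 and 1.76 TPM in IC replicates 2, 3 and 4, 3.49, 3.79 and 4.3 TPM in IS replicates 2, 3 and 4, and 1.45, 3.12 and 4.26 TPM in IS-HA replicates 1, 2 and 3. The rats of each group are given in this order throughout. IC and IS did not overlap, whereas IS-HA spanned both. Tnf rested on 6 counts in each Normal rat and 15 to 47 counts in the hemorrhage rats, so its values carry a large counting error, as do the Normal values of Tnfsf13b and Cd40. Its log2 fold change against Normal was 2.19 ± 0.57 (SE) in IC (edgeR adjusted p = 0.0252), 3.03 ± 0.58 in IS (0.00196) and 2.59 ± 0.58 in IS-HA (0.00806). The call in IC was lost when IC replicate 3 was left out (1.81, edgeR adjusted p = 0.0950), or either Normal rat (0.115 without replicate 1, 0.185 without replicate 3), as was the call in IS-HA without either Normal rat (0.0521 and 0.0763).

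Tnfsf12 (ENSRNOG00000045670) encodes TWEAK, the ligand of the receptor encoded by Tnfrsf12a, and was the most abundant of the 3 ligands in every group. It was 14.3 and 12.1 TPM in Normal, 37.7, 53.8 and 43.3 TPM in IC, 63.2, 62.7 and 103 TPM in IS, and 46.4, 69.2 and 46.8 TPM in IS-HA. Every IS rat was above every IC rat, and IS-HA replicate 2 fell within the IS range while the other 2 aspirated rats fell within the IC range. The log2 fold change against Normal was 1.70 ± 0.37 in IC (edgeR adjusted p = 0.0105), 2.56 ± 0.39 in IS (0.000565) and 2.05 ± 0.38 in IS-HA (0.00296). In IC the call was lost without Normal replicate 1 (edgeR adjusted p = 0.0517) or replicate 3 (0.132).

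Tnfsf13b (ENSRNOG00000014464) encodes BAFF, a survival factor for B cells that myeloid cells make. It was 0.704 and 0.36 TPM in Normal, 3.24, 8.11 and 5.98 TPM in IC, 7.47, 7.74 and 9.96 TPM in IS, and 5.71, 9.97 and 6.08 TPM in IS-HA. IC replicate 3 lay within the IS range, so this was the one member called higher whose IC and IS rats overlapped. Its rise against Normal was the largest among the ligands, at 3.35 ± 0.59 log2 units in IC (edgeR adjusted p = 0.00313), 3.96 ± 0.60 in IS (0.000552) and 3.75 ± 0.60 in IS-HA (0.00132). The Normal rats gave 10 and 5 counts for it. Without Normal replicate 1 the same values were 3.97, 4.58 and 4.37, and without replicate 3 the call in IC was lost (2.90, edgeR adjusted p = 0.0578). B cell markers stayed scarce in these samples: the 5 genes of that list summed to 0.749 to 0.859 TPM in Normal and 1.12 to 3.13 TPM across the hemorrhage rats, and none of the 5 passed the filter on counts.

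Tnfrsf1a (ENSRNOG00000031312), the broadly expressed death-domain receptor of TNF, was the most abundant member in every group. It was 17.2 and 18.6 TPM in Normal, 65.9, 116 and 72.9 TPM in IC, 149, 127 and 154 TPM in IS, and 93.3, 97 and 96.1 TPM in IS-HA. In TPM the 3 aspirated rats lay close together, below all IS rats and inside the IC range. In CPM, counts scaled by library depth and here also by TMM, they were 91.7, 123 and 93.7. On that scale replicate 2 was above the highest IC rat (114) and still below all IS rats. The log2 fold change against Normal was 2.18 ± 0.26 in IC (edgeR adjusted p = 0.000321), 3.02 ± 0.27 in IS (3.57e-05) and 2.42 ± 0.26 in IS-HA (0.000144).

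Tnfrsf1b (ENSRNOG00000016575) encodes the TNF receptor without a death domain, found mainly on immune and endothelial cells. It was 2.03 and 1.6 TPM in Normal, 9.11, 17.2 and 16.5 TPM in IC, 26.8, 22.1 and 37.5 TPM in IS, and 16.3, 16.9 and 17.3 TPM in IS-HA. As for Tnfrsf1a, every IS rat was above every rat of both other hemorrhage groups. The rise against Normal was 2.92 ± 0.38 log2 units in IC (edgeR adjusted p = 0.000585), 4.01 ± 0.40 in IS (5.96e-05) and 3.20 ± 0.39 in IS-HA (0.000284). The TPM ratio of Tnfrsf1b to Tnfrsf1a was 0.118 and 0.086 in the Normal rats, 0.138, 0.149 and 0.226 in IC, 0.18, 0.173 and 0.244 in IS, and 0.175, 0.175 and 0.18 in IS-HA. It was higher in each hemorrhage rat than in either Normal rat, and the hemorrhage groups overlapped. By contrast, the TPM ratio of Tnf to Tnfrsf1a had group means of 0.0262 in Normal, 0.026 in IC, 0.0271 in IS and 0.0307 in IS-HA, with the widest spread in IS-HA (0.0156, 0.0322 and 0.0444).

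Tnfrsf12a (ENSRNOG00000003546) encodes Fn14, the TWEAK receptor, which injury is known to induce in many tissues. It was 8.54 and 4.99 TPM in Normal, 14.3, 35.4 and 12 TPM in IC, 36.8, 55.5 and 58.1 TPM in IS, and 35.2, 39 and 51.9 TPM in IS-HA. IC replicate 3 stood well above the other 2 IC rats, and the IS and IS-HA ranges overlapped. The log2 fold change in IC was 1.51 ± 0.47 (edgeR adjusted p = 0.0491), just inside the threshold. It was 0.92 (edgeR adjusted p = 0.175) without IC replicate 3, 2.03 (0.0817) without Normal replicate 1 and 1.13 (0.350) without Normal replicate 3. The call in IC was also lost without IS replicate 3 or 4 or IS-HA replicate 1 or 3 (adjusted p 0.0512 to 0.0682), with DESeq2 size factors (0.0507), with at least 10 counts in every rat (0.0506), by limma on log2(TPM + 1) (0.0513) and with the replicate block (0.220). In IS it was 2.90 ± 0.50 (edgeR adjusted p = 0.00108) and in IS-HA 2.60 ± 0.49 (0.00336), where the call was lost without Normal replicate 3 (2.21, 0.0520). The TPM ratio of Tnfrsf12a to Tnfsf12 averaged 0.504 ± 0.13 (SD, n = 2) in Normal, 0.438 ± 0.197 (n = 3) in IC, 0.676 ± 0.182 in IS and 0.81 ± 0.277 in IS-HA, so group differences were of the size of the spread between rats.

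Fas (ENSRNOG00000019142), the death receptor whose ligand is carried by cytotoxic lymphocytes, was 1.11 and 0.616 TPM in Normal, 4.51, 5.79 and 3.59 TPM in IC, 6.82, 8.89 and 7.76 TPM in IS, and 6.26, 4.74 and 4.51 TPM in IS-HA. Both IC and IS-HA rats lay below all IS rats. Against Normal its log2 fold change was 2.34 ± 0.36 in IC (edgeR adjusted p = 0.00143), 3.18 ± 0.37 in IS (0.000129) and 2.55 ± 0.37 in IS-HA (0.000709). Its ligand Faslg did not pass the filter on counts and had a mean of 0.444 TPM in Normal, 0.253 in IC, 0.468 in IS and 0.579 in IS-HA.

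Cd40 (ENSRNOG00000018488), the costimulatory receptor of antigen-presenting cells and activated microglia, had the largest fold change of the 10 members in each group. It was 0.821 and 0.336 TPM in Normal, 6.39, 11.1 and 7.23 TPM in IC, 13.7, 13.8 and 17.6 TPM in IS, and 8.4, 14.9 and 10.9 TPM in IS-HA. The highest aspirated rat was replicate 2, inside the IS range. The log2 fold change was 3.73 ± 0.53 in IC (edgeR adjusted p = 0.000926), 4.68 ± 0.54 in IS (0.000128) and 4.27 ± 0.54 in IS-HA (0.00035), on 10 and 4 counts in the Normal rats. Without Normal replicate 1 it was 4.56, 5.51 and 5.11. Its ligand Cd40lg did not pass the filter on counts and reached at most 0.328 TPM, in IC.

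Ltbr (ENSRNOG00000019264), the lymphotoxin β receptor and a route to the non-canonical NF-κB pathway, was the second most abundant member in every group. It was 18.6 and 16.7 TPM in Normal, 53.8, 87.7 and 61.6 TPM in IC, 91.6, 108 and 125 TPM in IS, and 68.9, 92.8 and 70 TPM in IS-HA. IS lay above IC without overlap, and only replicate 2 of the aspirated rats reached the IS range. The log2 fold change was 1.87 ± 0.32 in IC (edgeR adjusted p = 0.00244), 2.63 ± 0.33 in IS (0.000184) and 2.14 ± 0.32 in IS-HA (0.000883).

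Tnfrsf11b (ENSRNOG00000008336) encodes osteoprotegerin, a secreted decoy receptor that binds RANKL and TRAIL, and it was the member not called in any group. It was 11.5 and 11 TPM in Normal, 11.4, 15 and 10.5 TPM in IC, 8.71, 7.41 and 3.84 TPM in IS, and 12, 2.78 and 11 TPM in IS-HA. The 3 IS rats and IS-HA replicate 2 had the 4 lowest values of the 11 rats. The log2 fold change was 0.06 in IC (95% interval -0.87 to 0.98, edgeR adjusted p = 0.939), -0.76 in IS (-1.69 to 0.17, 0.154) and -0.46 in IS-HA (-1.39 to 0.46, 0.408). Without IS-HA replicate 2 the value in IS was -0.75 (edgeR adjusted p = 0.0264), past the p threshold but short of the fold threshold, and in IS-HA it was -0.11 (0.797). Of its ligands, Tnfsf11 (RANKL) did not pass the filter on counts, at 0.0278 TPM in Normal and 0.779 TPM in IS on average. Tnfsf10 (TRAIL), given after its value was seen, was at -1.52 ± 0.62 log2 units in IS against Normal (edgeR adjusted p = 0.062).

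**Figure D2:**
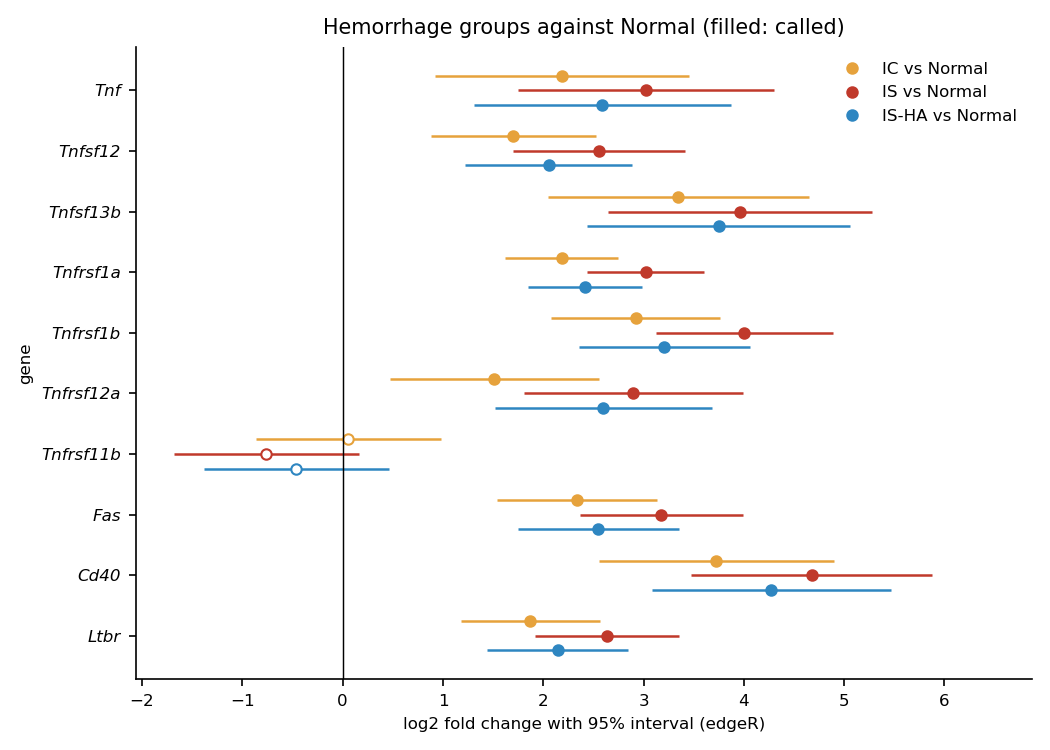
Log2 fold change against Normal (x axis) for each member (y axis) in IC, IS and IS-HA, from edgeR; lines are 95% intervals, filled points were called and open points were not. The 9 filled members lie between 1.51 and 4.68, while Tnfrsf11b lies between -0.76 and 0.06 with intervals that cross 0.

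Ordered by mean TPM, Tnfrsf1a, Ltbr and Tnfsf12 were the top 3 members in all 4 groups. In Normal, Tnfrsf11b came next at 11.3 ± 0.372 TPM, above Tnfrsf12a (4.99 and 8.54 TPM) without overlap. It was 6th in IC at 12.3 ± 2.38 TPM, 9th in IS at 6.65 ± 2.52 TPM and 7th in IS-HA at 8.59 ± 5.06 TPM, and in each of these groups its range overlapped that of the next lower gene. In Normal, Fas, Cd40, Tnfsf13b and Tnf formed the low end, from 0.861 down to 0.468 TPM on average, each overlapping its neighbour. Tnfrsf1a and Ltbr overlapped in Normal and in IC, whereas in IS and IS-HA every Tnfrsf1a value was above every Ltbr value.

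The severity comparison, IS against IC, asked what the larger dose added. Each of the 9 members that rose with hemorrhage had a higher mean in IS, by 0.61 to 1.39 log2 units, and Tnfrsf11b had a lower one. The median of the 10 members was 0.84, against 0.00 over all genes. In TPM, 8 members were higher in every IS rat than in every IC rat, which held for 15.4% of all genes, and Tnfrsf11b was lower in every IS rat, which held for 18.0%. After adjustment edgeR called none of the members and 0% of all genes, that is 0 of 15742.

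At an unadjusted p under 0.05 in edgeR, 7 of the 10 members differed between IS and IC, as did 22.2% of all genes. The 3 others were Tnf, Tnfsf13b and Tnfrsf11b. DESeq2 called 2 members, among 3.83% of all genes. They were Tnfrsf1b, at 1.10 (DESeq2 adjusted p = 0.0239), and Tnfrsf12a, at 1.41 (DESeq2 adjusted p = 0.0228). In the fit without IS-HA replicate 2, which is in neither group compared but enters the shared estimate of the spread, edgeR called the same 2 members among 6.06% of all genes. There Tnfrsf1b was at 1.09 (edgeR adjusted p = 0.0368) and Tnfrsf12a at 1.38 (edgeR adjusted p = 0.0443).

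In the fit of all 11 rats, Tnfrsf12a had the largest difference between IS and IC, 1.39 (95% interval 0.51 to 2.26, edgeR adjusted p = 0.148), and Tnfrsf1b the next, 1.09 (0.43 to 1.74, 0.148). Tnfrsf1a, with the narrowest interval of the members, was at 0.84 (0.38 to 1.30, edgeR adjusted p = 0.147), and Cd40 at 0.95 (0.14 to 1.75, 0.185). The ligands were at 0.84 for Tnf (-0.11 to 1.79, edgeR adjusted p = 0.265), 0.86 for Tnfsf12 (0.17 to 1.54, 0.175) and 0.61 for Tnfsf13b (-0.31 to 1.53, 0.381). Tnfrsf11b was at -0.82 (-1.66 to 0.03, edgeR adjusted p = 0.236).

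The aspiration comparison, IS-HA against IS, asked whether these genes differed after the aspiration procedure as a whole. The 9 members that rose with hemorrhage had lower means after aspiration, by 0.21 to 0.80 log2 units, and Tnfrsf11b a higher one, and none was called. In edgeR's fit 0.00635% of all genes were called, which is 1 gene, Foxn3, named after its value was seen (1.86 ± 0.21, edgeR adjusted p = 0.0488). The members' median was -0.46, against 0.05 over all genes. At an unadjusted p under 0.05 there were 3 members, Tnfrsf1a, Tnfrsf1b and Fas, beside 8.94% of all genes. DESeq2 called 0 members and 0.400% of all genes. The same 3 receptors had every aspirated rat below every IS rat in TPM, which held for 6.37% of all genes.

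Tnfrsf1b differed most between IS-HA and IS, at -0.80 log2 units (95% interval -1.45 to -0.15, edgeR adjusted p = 0.54). Tnfrsf1a was at -0.60 (-1.06 to -0.14, edgeR adjusted p = 0.54) and Fas at -0.63 (-1.25 to -0.01, 0.558). For Tnf the difference was -0.44 (-1.40 to 0.53, edgeR adjusted p = 0.76), an interval that holds both a fall of more than 1 log2 unit and no fall. Tnfrsf12a, at -0.30 (-1.15 to 0.56, edgeR adjusted p = 0.826), and Tnfsf13b, at -0.21 (-1.14 to 0.71, 0.897), had the smallest differences among the 9.

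Without IS-HA replicate 2 the differences from IS were larger for all 10 members, with a median of -0.72. In TPM the other 2 aspirated rats lay below every IS rat for 7 members, which held for 17.1% of all genes, and above every IS rat for Tnfrsf11b, which held for 34.3%. The log2 differences were then -0.94 for Tnfrsf1b (edgeR adjusted p = 0.0917), -0.75 for Tnfrsf1a (0.0618), -0.88 for Tnfsf12 (0.0728), -0.80 for Ltbr (0.0632) and 0.64 for Tnfrsf11b (0.129). No member was called in that fit, which called 3.03% of all genes. In TPM, replicate 2 was the highest of the aspirated rats for Tnfsf12, Tnfsf13b, Cd40 and Ltbr. It was so narrowly for Tnfrsf1a (97 against 93.3 and 96.1 TPM). For Tnfrsf1b replicate 2 was the highest in CPM with TMM scaling (53.5 against 40 and 42) but not in TPM. For Tnfrsf11b it was the lowest.

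The last comparison set the aspirated rats, which had received the larger dose, against IC, and the members' median difference was 0.32 log2 units, against 0.03 over all genes. Without IS-HA replicate 2 the median was 0.12, Tnfsf12 (-0.03), Tnfsf13b (-0.06) and Ltbr (-0.04) changed sign, and Cd40 was at 0.15. Here edgeR called none of the members and 0% of all genes, and DESeq2 called none of the members and 18 of all 15742 genes. At an unadjusted p under 0.05 there was 1 member, Tnfrsf12a, beside 4.97% of all genes. It was 1.09 log2 units higher in IS-HA (95% interval 0.22 to 1.95, edgeR adjusted p = 0.841), and 1.00 higher without IS-HA replicate 2. No member had every IS-HA rat above every IC rat in TPM, against 4.83% of all genes. For Tnfrsf1a the difference was 0.23 (-0.23 to 0.69, edgeR adjusted p = 0.846), which leaves differences of more than 0.69 log2 units outside its interval, whereas for Cd40 it was 0.55 (-0.26 to 1.36, 0.841).

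**Figure D3:**
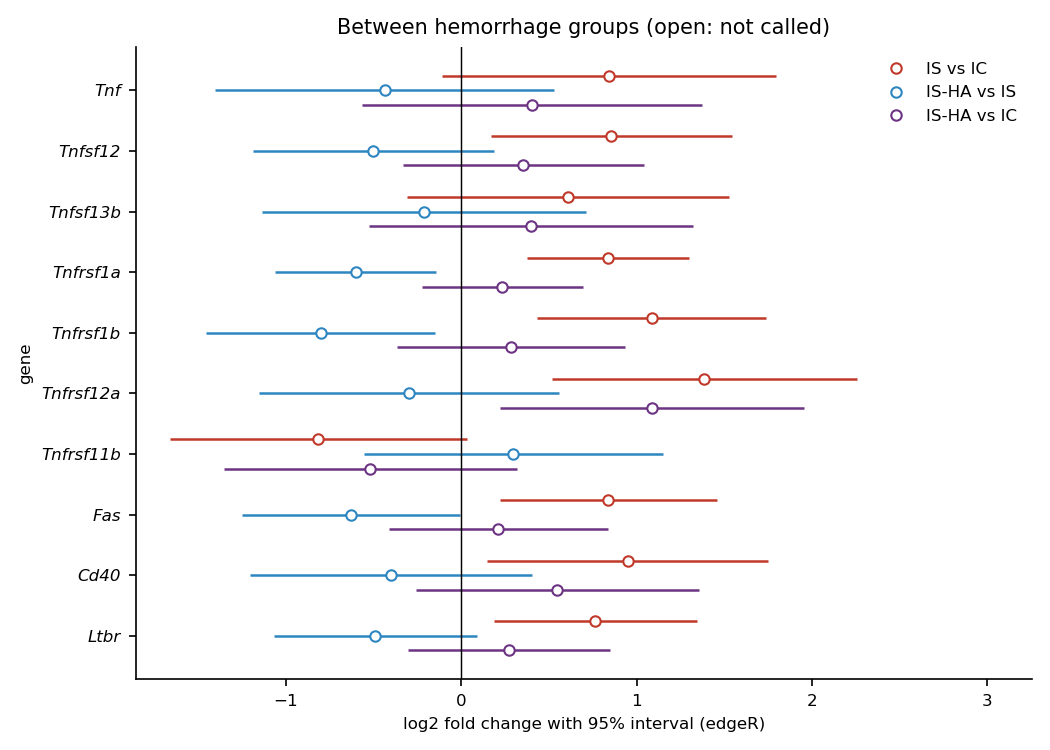
Log2 fold change between hemorrhage groups (x axis) for each member (y axis), from edgeR with 95% intervals; all points are open because none was called. IS against IC lies above 0 for 9 members and IS-HA against IS below 0 for the same 9, with Tnfrsf11b on the opposite side in both comparisons, which share the IS rats.

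Beyond these members, 15 other ligands of the family were listed, of which 8 passed the filter on counts. In IS against Normal 6 of these 8 were called higher and 1 lower, where 18.8% of all genes were called higher and 17.0% lower, and the list's median was 2.08, unchanged when the ligand at 0 in Normal was set at its lower bound. Tnfsf14 (LIGHT), a ligand of Ltbr, was at 0 counts in both Normal rats and averaged 0.939 TPM in IC, 4.36 TPM in IS and 1.58 TPM in IS-HA. Taking 3 counts over the Normal group as the floor, it was at least 29.4-fold higher in IS by CPM, counts scaled by library depth. Tnfsf9, a T cell costimulatory ligand, was 0.503 TPM in Normal and 10.5 TPM in IS on average (log2 fold change 4.36 ± 0.63, edgeR adjusted p = 0.000426). Tnfsf18 and Tnfsf4, also costimulatory, were at 3.02 ± 0.89 (edgeR adjusted p = 0.0168) and 2.12 ± 0.44 (0.0032). The ligand called lower was Eda, which shapes skin appendages, at -1.19 ± 0.36 (edgeR adjusted p = 0.0177). Lta, which with Ltb forms the main ligand of Ltbr, did not pass the filter on counts. It averaged 0.0485 TPM in Normal and 0.549 TPM in IS, and Cd70, Tnfsf8 and Tnfsf15 did not pass the filter either. Ltb, given after its value was seen, was called higher in IS (2.04 ± 0.67, edgeR adjusted p = 0.0272). It averaged 3.32 TPM in Normal and 13.7 TPM in IS.

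Of 18 other receptors listed, 14 passed the filter, 4 were called higher in IS against Normal and 1 lower, shares that stand beside 18.8% and 17.0% over all genes, and their median was 1.00 in IS, 0.47 in IC and 0.43 in IS-HA. Tnfrsf8 rose by 4.30 ± 0.80 log2 units (edgeR adjusted p = 0.00173) and Tnfrsf14 by 3.24 ± 0.66 (0.00281), both from under 0.15 TPM in Normal to 1.26 and 1.4 TPM in IS. Relt (1.68 ± 0.27, edgeR adjusted p = 0.000775) and Tnfrsf9 (1.65 ± 0.56, 0.0301) were the other receptors called higher. Eda2r, a receptor for an isoform of Eda, was the one called lower, at -2.11 ± 0.79 (edgeR adjusted p = 0.0463). Tnfrsf13b, Tnfrsf13c and Tnfrsf17, the receptors of BAFF, did not pass the filter and averaged at most 0.556 TPM in any group, and Cd27 did not pass it either.

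Of 26 genes that carry the signal inside the cell, 25 passed the filter, and 9 were called higher and 2 lower in IS against Normal, beside the same 18.8% and 17.0% of all genes. Ripk3, the necroptosis kinase, rose by 4.60 ± 0.43 log2 units (edgeR adjusted p = 4.44e-05), from 1.3 TPM in Normal to 20 in IC, 31.5 in IS and 24.1 in IS-HA on average. Its substrate Mlkl, which breaches the membrane, rose by 4.00 ± 0.65 (edgeR adjusted p = 0.000834). Birc3, an inhibitor of apoptosis that NF-κB induces, rose by 4.14 ± 0.49 (edgeR adjusted p = 0.000139), and Tradd, the death-domain adaptor of Tnfrsf1a, by 3.11 ± 0.49 (0.000654). The 2 called lower were Traf3, which restrains the non-canonical NF-κB pathway, at -1.07 ± 0.34 (edgeR adjusted p = 0.0229), and Traf6, at -1.03 ± 0.39 (0.0479). The list's median was 0.66 and 14 of the 25 were not called. Tab1 did not pass the filter.

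Among 8 inhibitors of the pathway, 5 were called higher in IS against Normal and 1 lower, beside 18.8% and 17.0% of all genes. Zfp36, which destabilises Tnf mRNA, rose by 2.77 ± 0.33 log2 units (edgeR adjusted p = 0.000146), and Nfkbia, the inhibitor that holds NF-κB in the cytoplasm, by 1.91 ± 0.29 (0.000579). Tnip2 and Nfkbie rose by 1.74 ± 0.27 (edgeR adjusted p = 0.00066) and 1.70 ± 0.28 (0.000834). Cyld, a deubiquitinase that limits NF-κB signalling, was the one called lower, at -1.71 ± 0.29 (edgeR adjusted p = 0.000949), from 51.6 TPM in Normal to 15.6 TPM in IS on average. Tnfaip3 (A20), named after its value was seen because it is the best known inhibitor of the pathway, was at 0.29 ± 0.23 (edgeR adjusted p = 0.323). Of 6 genes for the shedding of TNF and its receptors, 4 were called higher and 0 lower, beside the same shares of all genes. They were Rhbdf2, which brings the sheddase to the cell surface in immune cells (4.06 ± 0.44, edgeR adjusted p = 8.67e-05), Furin (1.99 ± 0.34, 0.00109), Rhbdf1 (1.66 ± 0.21, 0.000215) and Adam17, the sheddase itself (1.49 ± 0.23, 0.000598).

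Of 18 genes known to be induced by TNF in many cell types, 13 were called higher in IS against Normal and 0 lower. Over all genes the shares were 18.8% and 17.0%. The list's median was 2.57, which did not change with the genes at 0 in Normal set at their lower bound. In IC 11 were called higher, where 10.9% of all genes were, and in IS-HA 12, where 15.1% were. Cxcl2, a neutrophil-attracting chemokine, was at 0 counts in both Normal rats and averaged 3.35 TPM in IC, 38.1 TPM in IS and 2.59 TPM in IS-HA. By CPM it was at least 19.8-fold, 231-fold and 15.7-fold higher than Normal. Ccl2, which attracts monocytes, rose from 0.42 TPM in Normal to 104, 241 and 103 TPM (log2 fold change in IS 9.10 ± 0.84, edgeR adjusted p = 4.02e-05). Il6 was also at 0 in Normal and stayed low, at 1.3 TPM in IS on average. Cxcl1 rose by 7.13 ± 0.95 log2 units in IS (edgeR adjusted p = 0.000274). The 5 genes not called in IS were Cxcl10, Ptgs2, Sod2, Tnfaip2 and Vcam1, named after their values were seen.

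Between hemorrhage groups edgeR called 0 of the 79 tested genes of these 6 lists in each comparison. At an unadjusted p under 0.05 there were 29 in IS against IC, 16 in IS-HA against IS and 2 in IS-HA against IC, beside 22.2%, 8.94% and 4.97% of all genes. DESeq2 called 3 of the 79 in IS against IC, Cxcl2, Birc3 and Tnfsf14, where it called 3.83% of all genes. It called 1, Cxcl2, in IS-HA against IS, where it called 0.400% of all genes, and 0 in IS-HA against IC. The list medians were between 0.08 and 0.70 in IS against IC and between -0.56 and 0.03 in IS-HA against IS.

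**Figure D4:**
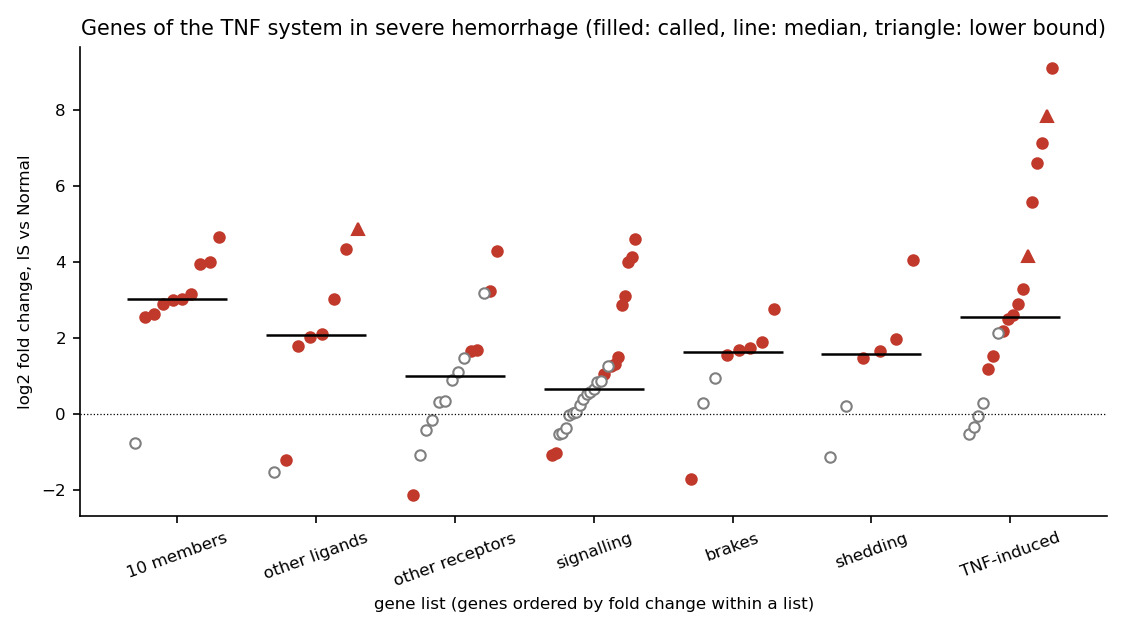
Log2 fold change in IS against Normal (y axis) for the 10 members and for each tested gene of the 6 other lists (x axis, ordered by size within a list); filled points were called, brakes are the inhibitors, triangles are lower bounds for genes at 0 in Normal and bars are medians. The members' median is 3.02, against 0.66 for the signalling list and 2.57 for the TNF-induced list.

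Markers of microglia and macrophages and of neutrophils were higher in the same groups as the members, and their part in these results was not tested. The 12 microglia and macrophage genes summed to 211 to 265 TPM in Normal, 1794 to 3104 in IC, 3084 to 6850 in IS and 2357 to 3651 in IS-HA. Of these 12, 10 were called higher in IS against Normal, where 18.8% of all genes were. The 2 others were P2ry12 and Tmem119, which mark resting microglia and are named after their values were seen. P2ry12 was called higher in IC (1.13 ± 0.29, edgeR adjusted p = 0.0219) and in IS-HA (1.14 ± 0.29, 0.0139). Tmem119 was not called in either. The 8 neutrophil genes summed to 4.91 to 5.04 TPM in Normal, 80.3 to 255 in IC, 497 to 693 in IS and 160 to 857 in IS-HA. Mpo and Ltf were at 0 in Normal, IC and IS, and Camp and Elane at 0 in Normal. The 5 genes tested were all called higher in IS, beside the same 18.8% of all genes. The T and NK cell genes, 7 of 8 with a row in the table, summed to 1.69 to 2.09 TPM in Normal, 44.5 to 135 in IC, 176 to 464 in IS and 82 to 211 in IS-HA, but Cd8a, which rat macrophages can also carry, made up most of these sums. Cd8a averaged 0.143 TPM in Normal, 82.4 in IC, 256 in IS and 123 in IS-HA, and each other gene of the list averaged at most 8.95 TPM in any group. Of the 6 tested, Cd8a alone was called higher in IC, where 10.9% of all genes were. In IS 4 were called higher, Cd2, Cd3g, Cd8a and Lck, where 18.8% of all genes were. In IS-HA Cd2 and Cd8a were, where 15.1% of all genes were. Of the genes Cd3g, Cd3e and Cd3d, which define T cells, Cd3g was thus called in IS only. It averaged 0.254 TPM in Normal and 3.16 TPM in IS. Cd3e and Cd3d were not called in any of these groups, although Cd3d averaged 0.0476 TPM in Normal and 0.758 TPM in IS. These genes are named after their values were seen.

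IS-HA replicate 2 had the highest sum of the aspirated rats for microglia and macrophage genes (3651 TPM), neutrophil genes (857) and the T and NK cell list, mostly Cd8a (211). It also had the highest TPM of these rats for Tnfsf12, Tnfsf13b, Cd40 and Ltbr and, narrowly, for Tnfrsf1a. The tissue label was checked with 8 medium spiny neuron genes, which were all detected in every group. They summed to 6052 to 6464 TPM in Normal, 2650 to 5337 in IC, 1309 to 3407 in IS and 1323 to 2939 in IS-HA. In IS against Normal 7 of the 8 were called lower, where 17.0% of all genes were. The 6 astrocyte genes summed to 1137 to 1465 TPM in Normal and 5720 to 9918 TPM across the hemorrhage rats, through Gfap and Vim, which were called higher in all 3 groups. Slc1a2, the astrocyte glutamate transporter, was called lower in all 3 and the 3 other genes were not called, so the sum does not describe the whole list, and these genes too are named after their values were seen. The 9 endothelial and mural genes summed to 244 to 276 TPM in Normal and 259 to 328 TPM in the hemorrhage rats. Within this list Vwf was called higher in IS against Normal (1.78 ± 0.31, edgeR adjusted p = 0.00108) and Rgs5 lower (-1.83 ± 0.35, 0.00183). The 7 others were not called in IS, so this sum does not describe each gene either, and the 2 are named after their values were seen. Sums over 6 fibroblast genes were 63 to 78.9 TPM in Normal and 108 to 307 TPM in the hemorrhage rats.

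**Figure D5:**
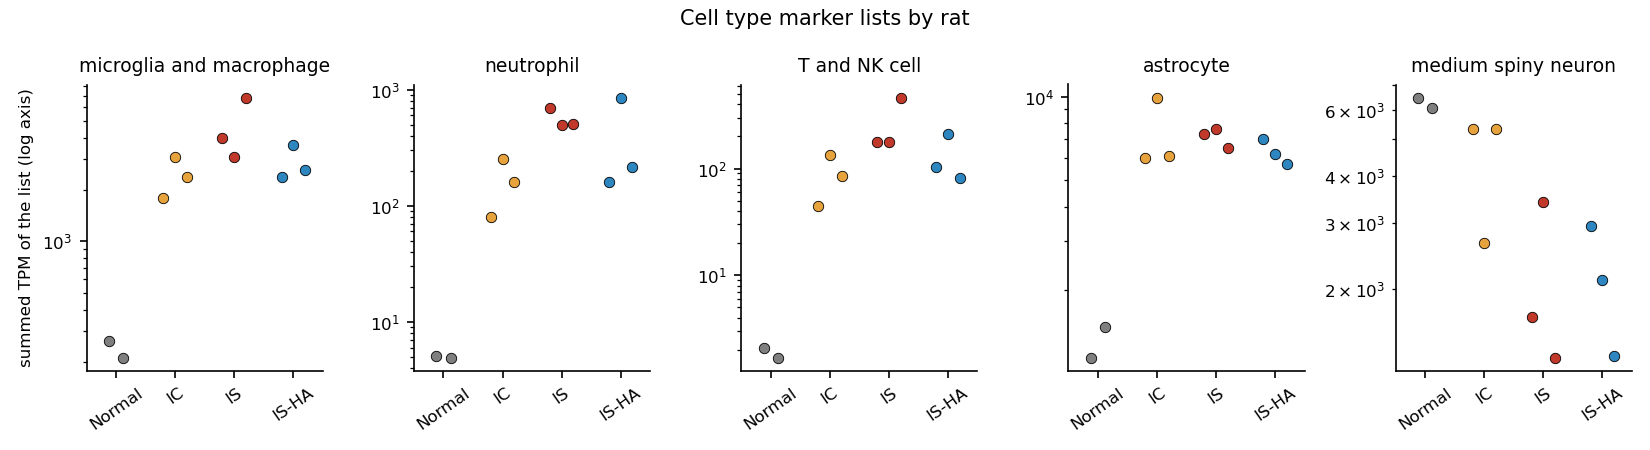
Summed TPM (y axis, log scale) of 5 marker lists in each rat by group (x axis); each point is a rat. The sums for microglia and macrophages, neutrophils, T and NK cells (mostly Cd8a) and astrocytes (mostly Gfap and Vim) are higher in every hemorrhage rat than in Normal, the sum for medium spiny neurons is lower, and the highest aspirated rat in the first 3 panels is replicate 2.

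Likeness of pattern was measured as the root mean square difference in log2 CPM over the 11 rats, each gene centred on its own mean, against 15732 other genes. The points share libraries and depth, and no test was made. Among the members the closest pair was Tnfsf12 and Ltbr (0.137), followed by Tnfrsf1a and Ltbr (0.206), and Tnfrsf11b was the farthest from each of the 9 others (1.38 to 1.97). Outside the members, Tnfsf12 was closest to Cndp2 (0.0957), Ostf1 (0.101) and Dpp7 (0.108), and Ltbr to Sh3bp2 (0.1), Aurka (0.105) and Nfkb2 (0.115), the last encoding the precursor subunit of the non-canonical NF-κB pathway. Tnfrsf1a was closest to Soat1 (0.123), Hmgb2 (0.138) and Bid (0.14), a substrate of the caspase that death receptors activate. Tnfrsf1b was closest to Parvg (0.166), RT1-DMb (0.176) and Ucp2 (0.18), and Tnfsf13b to Melk (0.177), Psmb9 (0.195) and Laptm5 (0.207). Cd40 was closest to Pttg1 (0.181), Gpr132 (0.182) and Clic1 (0.188), and Fas to Tcim (0.23), Fanci (0.23) and Rassf4 (0.232). Tnfrsf11b was closest to Phf21b (0.133), Fgfr3 (0.174) and Zfp790 (0.199). Tnf and Tnfrsf12a had no gene as close, at 0.259 to Nkain1 and 0.274 to Ecscr.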

How the data were processed

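Poly(A) RNA of rat striatum had been sequenced as stranded 150 bp paired-end libraries. The submitters' processing notes name fastp 0.20.0, HISAT2 2.1.0, SAMtools 1.9, featureCounts and build mRatBN7.2. The annotation version and the strand setting are not given in the sources used here, so reads of overlapping antisense genes may be shared. The authors deposited 1 table of gene counts, not normalized, and TPM values scaled by length and depth, for 11 rats. All columns were matched to samples (0 unmatched).

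The deposited counts were filtered with filterByExpr, scaled by TMM and fitted for all 4 groups together (edgeR 4.0.16, R 4.3.3, common dispersion 0.0691), with the quasi-likelihood test and Benjamini-Hochberg adjustment over 15742 genes. The study's methods name DESeq2, kept here as an alternative (version 1.42.0). TPM was used for levels, ranges and ratios without a test. Each script that tests across genes was tested on simulated data, except for its voom fit. There a larger share of the calls was false for DESeq2 than for edgeR. No 2 libraries of a group agreed within sampling noise, so none was treated as a repeat deposit.

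The 10 members and the lists of other ligands, other receptors, signalling genes, inhibitors, shedding genes, TNF-induced genes and cell type markers were chosen with earlier results of these data known. Named genes from these lists were the 4 largest rises and 2 largest falls called in IS against Normal, genes not tested, and genes singled out as said in the text. Oligodendrocyte markers summed to 16890 to 17281 TPM in Normal and 5782 to 14233 in the hemorrhage rats, general neuron markers to 2376 to 3203 and 398 to 1726, and erythroid genes to 54.4 to 57.8 and 15.6 to 164. Alternatives were other scalings (one without hemoglobin and mitochondrial genes), filters and tests, fits of only the 2 groups compared, a replicate block, limma on log2(TPM + 1) and log2(TPM + 0.1), and leaving out each rat. Promoters come from RefSeq (GRCr8), where 7 of the 10 members matched; Tnfsf12, Tnfrsf11b and Cd40 did not. Drawing used matplotlib 3.10.9.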

Additional observations from a re-analysis of the deposited data

How the results depend on the processing

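Over 22 alternatives, the 60 log2 fold changes of the members (10 members in 6 comparisons) gave 1302 values, since low members were not tested under the strictest filter. Of these, 1273 kept their side of the threshold, 24 lost a call, 5 gained one and 0 reversed a called value, while 7 uncalled values changed sign. Of the members called in IC against Normal, 9 became 5 with at least 10 counts in every rat (7 members tested), 4 under the replicate block and 5 to 9 when 1 rat was left out. The 5 came without Normal replicate 3, where the lone Normal rat is assumed to vary like the other groups. The other leave-one-out ranges were 9 to 9 in IS against Normal, 7 to 9 in IS-HA against Normal, 0 to 2 in IS against IC, and 0 to 0 in both comparisons of IS-HA with a hemorrhage group. In IS against IC the count of 0 became 2 with DESeq2, 2 without IS-HA replicate 2 and 1, Tnfrsf12a, with voom and a quality weight per rat, chosen after seeing the data. Over all genes, IS against IC had 0 calls, but 603 with DESeq2, 964 without IS-HA replicate 2 and 780 with voom; IS-HA against IS had 1, but 63, 481 and 290. The cause was not tested. With limma on log2(TPM + 1), folds of low members shrank through the added constant, for Tnf in IS from 3.03 to 1.72. The deviations of rats from their group means were correlated between groups. Mean r was -0.0749 over 11 pairs with the same number (-0.475 to 0.356), against 0.0249 over 34 pairs with different numbers. Deviations from means of 2 or 3 rats sum to 0 within a group, so these values cannot decide whether the numbers mark a shared batch. Under the replicate block the calls over all genes were 839 of 2138 in IC, 2696 of 5633 in IS and 2241 of 3596 in IS-HA against Normal. Depth limits Tnf, Tnfsf13b and Cd40 most, with 4 to 10 counts in Normal.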
